A study of Mus musculus with 12 samples.

Results

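Fibronectin (Fn1), the tenascins C, XB and N (Tnc, Tnxb, Tnn), periostin (Postn) and versican (Vcan) are 6 genes of the extracellular matrix, chosen by name from the 55418 genes of the count table. They were read in 12 single ScxGFP+ cells of uninjured mouse Achilles tendon, 6 from Tnmd-/- and 6 from WT mice on a C57BL/6 background, all untreated. Every cell carried the ScxGFP reporter, a green fluorescent protein driven by regulatory sequence of Scleraxis, the transcription factor of the tendon lineage. The knockout was constitutive, so tenomodulin was absent from every tissue of those mice and not only from tendon. Tnmd lies on the X chromosome, and per the study's methods its WT mice included heterozygous females. The tendons were digested with collagenase for 8 hours, and green cells were picked with a micromanipulator and sequenced by Smart-Seq2, a full-length method whose reads carried no molecular identifiers here. The labels give no age and no animal for any cell, and the study's methods give n = 2 tendons.

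Fn1 and Vcan were seen in all 12 cells. Tnxb was high in 1 cell of each genotype and at 0 to 3 counts in the other 10. Postn had 5 counts in all, and Tnc and Tnn had none. Fibronectin is a large dimeric glycoprotein that cells assemble into fibrils through integrins bound to its Arg-Gly-Asp motif, and it forms an early scaffold for collagen. Versican is a chondroitin sulfate proteoglycan that binds hyaluronan and makes the pericellular matrix loose and hydrated. Tenascins and periostin are matricellular proteins, which tune the contact of cells with the matrix. Tenascin C and periostin are known for high levels in developing, loaded or healing tendon, whereas tenascin XB is known for its role in collagen spacing, and its loss causes a form of Ehlers-Danlos syndrome.

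The sequence below is shown because it codes for the integrin-binding motif of the member with the highest level. It is read from the GRCm38 genome along the coding strand at chr1:71606710-71606790 (minus strand), in exon 30 of 46 of an annotated coding transcript, and the capitals mark the 9 bases of the Arg-Gly-Asp codons, which begin at codon 1614 of 2477. A second Arg-Gly-Asp stands at codon 2181, in exon 40.
Fn1 integrin-binding motif: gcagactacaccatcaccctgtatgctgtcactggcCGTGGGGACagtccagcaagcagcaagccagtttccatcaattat

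The 250 bases before the start of transcription follow for 3 members that span the range of detection, Vcan (counts in 12 of 12 cells), Tnxb (6 of 12) and Tnc (0 of 12). They come from RefSeq (GRCm38.p6), whose promoter table matched 5 of the 6 members, at chr13:89742513-89742762 (minus strand), chr17:34670285-34670534 (plus strand) and chr4:64047016-64047265 (minus strand). Capitals mark E-boxes (CANNTG, a palindrome, so that both strands read alike), the letters bound by the basic helix-loop-helix family to which Scleraxis belongs.
Vcan: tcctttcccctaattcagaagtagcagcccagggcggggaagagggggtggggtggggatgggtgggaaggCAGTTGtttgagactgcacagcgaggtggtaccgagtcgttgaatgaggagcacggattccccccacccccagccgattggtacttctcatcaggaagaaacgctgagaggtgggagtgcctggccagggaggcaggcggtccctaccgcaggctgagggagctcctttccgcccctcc
Tnxb: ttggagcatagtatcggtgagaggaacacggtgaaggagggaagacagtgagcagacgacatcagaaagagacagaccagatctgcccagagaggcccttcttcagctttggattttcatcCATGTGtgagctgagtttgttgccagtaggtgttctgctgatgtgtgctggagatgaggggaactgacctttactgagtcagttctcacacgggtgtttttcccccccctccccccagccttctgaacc
Tnc: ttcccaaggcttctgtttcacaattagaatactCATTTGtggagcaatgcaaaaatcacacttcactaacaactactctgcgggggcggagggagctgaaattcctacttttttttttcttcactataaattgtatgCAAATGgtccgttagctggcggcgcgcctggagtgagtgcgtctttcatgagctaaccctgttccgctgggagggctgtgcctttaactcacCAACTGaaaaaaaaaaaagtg
The Vcan window held 1 E-box, the Tnxb window 1, and the Tnc window 3. An E-box was in 66.2% of 32851 mouse promoter windows of this length. The sequence TATAA, read on both strands, was found in the Tnc window but not in those of Vcan and Tnxb (22.8% of all windows held it). The GC box GGGCGG, also read on both strands, was found 2 times in the Vcan window, 1 time in that of Tnc and not in that of Tnxb (32.7% of all windows). These are matches of letters and not binding sites.

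Depth ranged from 892713 to 10333351 total counts in the knockout libraries and from 4516036 to 13613080 in the WT libraries. CPM are counts divided by the total of the cell, times 1000000, and pooled CPM are summed counts of a genotype over its summed total. The study marked 3 cells of each genotype as less degraded (Tnmd-/- cells 9, 10 and 20, WT cells 4, 5 and 10) and 3 as more degraded (Tnmd-/- cells 1, 3 and 7, WT cells 1, 2 and 14). The less degraded cells were also the deeper ones, with at least 6742665 counts against at most 5991316. In Tnmd-/- cell 3 mitochondrial genes made up 51.8% of the counts, beside 1.75 to 7.30% in the other 11 cells. Tnmd itself had 8 counts over the 6 knockout cells and 10185 over the 6 WT cells, 99.9% of the latter in WT cell 14, and 4 WT cells had none. Of the tendon fibroblast markers, decorin (Dcn) stood at 40010 and 56340 pooled CPM for Tnmd-/- and WT, Thbs4 at 2303 and 1963 and Fmod at 192 and 668. Col1a1 was at 56.7 and 64.4 pooled CPM with at least 10 counts in 5 of 12 cells. Col1a2 was at 237 and 302 pooled CPM with at least 10 counts in all 12 cells. Mkx reached 10 counts in 3 cells, and Scx had 3 and 2074 counts and was at 0 in 7 cells. Of the 5 tendon sheath markers, Prg4 had at least 10 counts in all 12 cells, at 20052 and 13873 pooled CPM. Ly6a reached 10 counts in 5 cells, Pdgfra in 3 and Tppp3 in 1, and Cd34 was at 0. Thus the markers did not separate tendon proper from sheath. Of the 5 endothelial markers, Pecam1 had 163 counts in Tnmd-/-, 97.6% of its counts in cell 1 (30.1 CPM), Tek had 4 counts in that same cell, Kdr had 2 counts in WT cell 10, and Cdh5 and Emcn were at 0. Of the 5 immune markers Cd68 had 12 counts and the other 4 had none. Of the 5 mural markers Cspg4 reached 641 CPM, with at least 10 counts in 6 cells, and Rgs5, Acta2, Myh11 and Kcnj8 were at 0. Since no cell is tied to an animal, each genotype is 1 sample, and the values below carry no test. Their 95% intervals, exact Poisson for a level and exact binomial for a ratio, cover the counting of reads only.

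Fn1 (ENSMUSG00000026193, chr1:71585520-71653200, minus strand, GRCm38, 11685 bases of exon, 2.5% of them shared with Apol7d) had the highest level of the 6 genes. In the Tnmd-/- cells 1, 3, 7, 9, 10 and 20 it stood at 341, 29.2, 305, 7758, 2105 and 3193 CPM. In the WT cells 1, 2, 4, 5, 10 and 14 it stood at 6029, 1963, 5299, 4018, 22018 and 455 CPM. The ranges overlapped, with 3 Tnmd-/- cells below every WT cell and 1 WT cell above every Tnmd-/- cell. In WT cell 10 it ranked 5 among the genes of the cell, and in Tnmd-/- cell 3 it ranked 963. The median cell had 1223 CPM in Tnmd-/- and 4659 in WT.

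Pooled by genotype, Fn1 stood at 3577 CPM (95% interval 3557 to 3597) for Tnmd-/- and at 8641 CPM (8616 to 8666) for WT, 2.42-fold lower in Tnmd-/- (log2 ratio −1.27, interval −1.28 to −1.26). A 2-fold gap was common in these libraries. Of 9768 genes with at least 20 counts, 34.9% were at least 2-fold lower in the Tnmd-/- cells and 35.5% at least 2-fold higher, on the log2 scale with 1 CPM added. Fn1, Vcan and Tnxb, 3 of the 6 genes, had that many counts. WT cell 10 alone held 64.9% of the Fn1 counts of its genotype, and without it the log2 ratio was −0.19. Tnmd-/- cell 9 held 63.9%, and without it the log2 ratio was −2.24.

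Within the less degraded cells, pooled Fn1 was 4506 CPM in Tnmd-/- and 10868 CPM in WT, with overlapping cells and a log2 ratio of −1.27. Within the more degraded cells it was 276 and 3108 CPM, with a log2 ratio of −3.49 (interval −3.56 to −3.43). There the 3 Tnmd-/- cells, at 29.2 to 341 CPM, all lay below the 3 WT cells, at 455 to 6029 CPM. Of all genes tested, 1.48% separated the more degraded cells completely with the WT cells higher. That share is no measure for a gene seen in every cell, since 55.7% of the genes reached 10 counts in only 1 or 2 cells. Depth differed within this level too. Tnmd-/- cells 1, 3 and 7 had 5310493, 1504775 and 892713 total counts, and WT cells 1, 2 and 14 had 5991316, 4825610 and 4516036.

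Inside the Tnmd-/- genotype, the 3 less degraded cells all had more Fn1 (2105 to 7758 CPM) than the 3 more degraded cells (29.2 to 341 CPM). That order was shared by 4.15% of all genes tested, a share that likewise includes the genes counted in few cells. Inside the WT genotype the levels overlapped, at 4018 to 22018 and 455 to 6029 CPM. Fn1 CPM was higher in cells with more total counts, with a Spearman rho of 0.860 over the 12 cells, 0.886 over the Tnmd-/- and 0.829 over the WT cells. Depth and degradation level moved together in these libraries, and their part in the Fn1 difference between genotypes was not tested. When mitochondrial counts were left out of the totals, Fn1 in Tnmd-/- cell 3 was 60.7 CPM, still the lowest of the 12 cells.

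**Figure D1:**
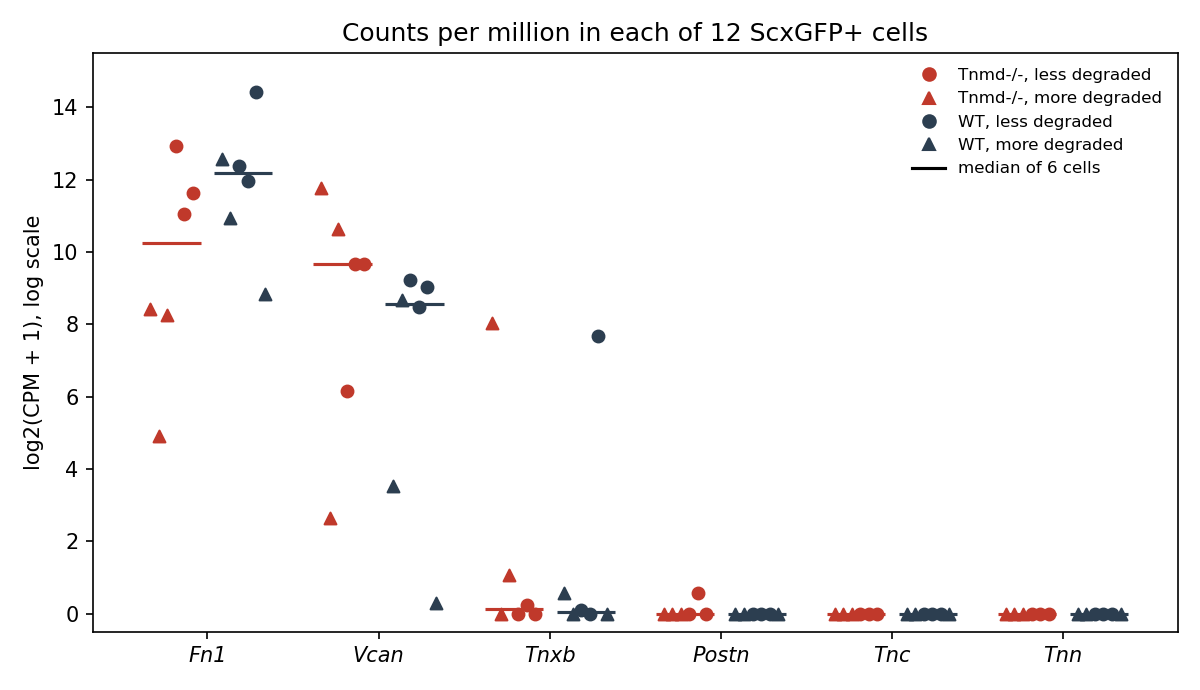
Level of each of the 6 genes in each of the 12 cells, as log2(CPM + 1) on the y axis; circles are less and triangles more degraded cells, red is Tnmd-/-, dark blue is WT, and the bar is the median of 6 cells. Fn1 and Vcan lie above 0 in every cell, Tnxb is high in 1 cell of each genotype, and Tnc and Tnn lie at 0 throughout.

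Vcan (ENSMUSG00000021614, chr13:89655312-89742509, minus strand, 14462 bases of exon, none shared with another gene) was the other member seen in every cell, as were 7.89% of all genes tested. In the Tnmd-/- cells 1, 3, 7, 9, 10 and 20 it stood at 3495, 5.32, 1584, 70.5, 815 and 808 CPM. In the WT cells 1, 2, 4, 5, 10 and 14 it stood at 10.5, 404, 597, 357, 518 and 0.221 CPM, the last from 1 count. Of the Tnmd-/- cells 4 lay above every WT cell, and the other 2 lay inside the WT range. At least 10 counts were reached in 5 of 6 cells of each genotype.

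Pooled Vcan was 985 CPM (974 to 995) for Tnmd-/- and 389 CPM (384 to 395) for WT, 2.53-fold higher in Tnmd-/- (log2 ratio 1.34, interval 1.31 to 1.36), the side on which 35.5% of all genes tested lay at least 2-fold. Tnmd-/- cell 1 held 53.7% of the Vcan counts of its genotype, and without it the log2 ratio was 0.47. This is the cell that also held the Pecam1 counts, and their part in the result was not tested. The median cell had 812 CPM in Tnmd-/- and 381 CPM in WT. In the less degraded cells the genotypes stood close together, at 532 (Tnmd-/-, interval 524 to 541) and 492.9 (WT, interval 486 to 500.0) pooled CPM (log2 ratio 0.11, interval 0.080 to 0.14). In the more degraded cells they stood at 2592 and 131 CPM (log2 ratio 4.30, interval 4.24 to 4.37), with Tnmd-/- cell 1 holding 92.9% and WT cell 2 holding 96.8% of the counts. The cells overlapped between genotypes in both levels. Vcan followed total counts less closely than Fn1, with a rho of 0.098 over 12 cells, −0.26 over the Tnmd-/- and 0.771 over the WT cells.

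**Figure D2:**
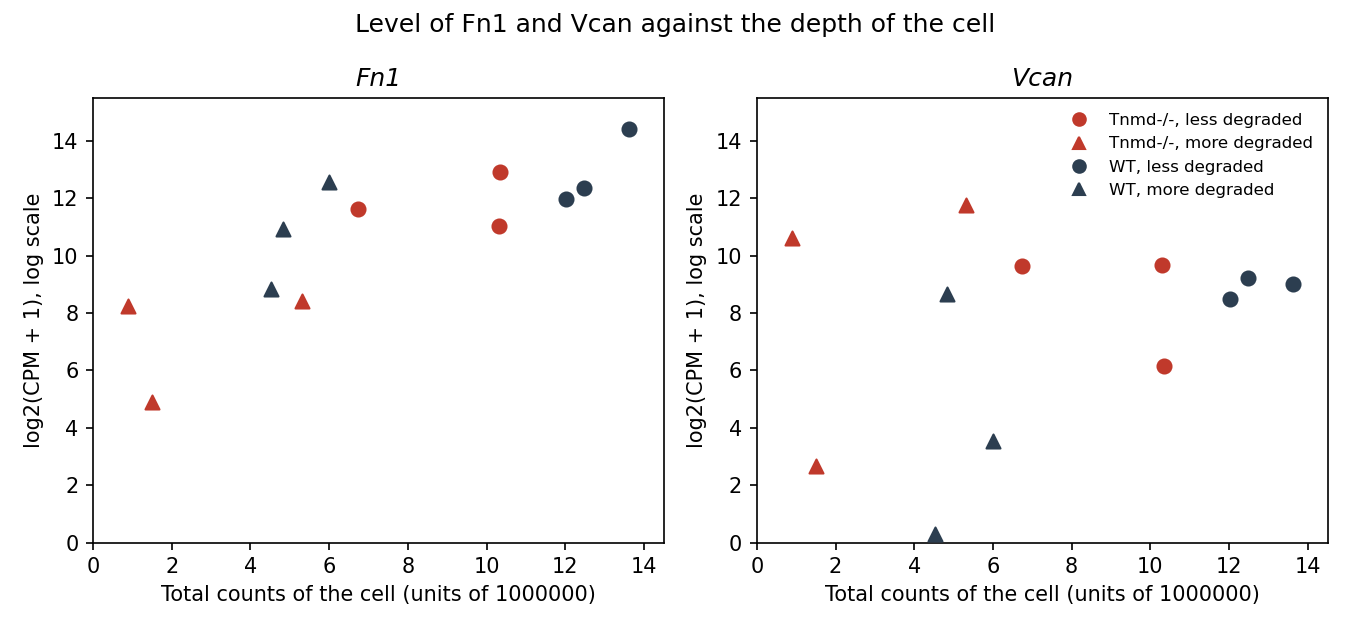
Level of Fn1 (left) and Vcan (right) as log2(CPM + 1) against the total counts of the cell in units of 1000000; each point is 1 cell, with colours for genotype and shapes for degradation level. Fn1 is higher in the deeper cells (rho 0.860), and Vcan shows no such order over the 12 cells (rho 0.098).

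Levels of different genes were compared per kilobase of exon. Over all 12 cells pooled, Fn1 stood at 567.7 CPM per kilobase, Vcan at 43.2, Tnxb at 3.84 and Postn at 0.0065. The order of Fn1, Vcan and Tnxb was the same in the median cell, at 227, 31.9 and 0.0033 CPM per kilobase. Fn1 was above Vcan in 10 of 12 cells, and Vcan was above Tnxb in 12 of 12. The 2 exceptions were Tnmd-/- cell 1, with Vcan at 242 and Fn1 at 29.2 CPM per kilobase, and Tnmd-/- cell 7, with 110 and 26.1. The widest gap the other way was in WT cell 14, at 39.0 for Fn1 and 0.015 for Vcan. The rho between Fn1 and Vcan CPM was −0.14 over the 12 cells, −0.086 within Tnmd-/- and 0.486 within WT, over points that share their library totals.

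**Figure D3:**
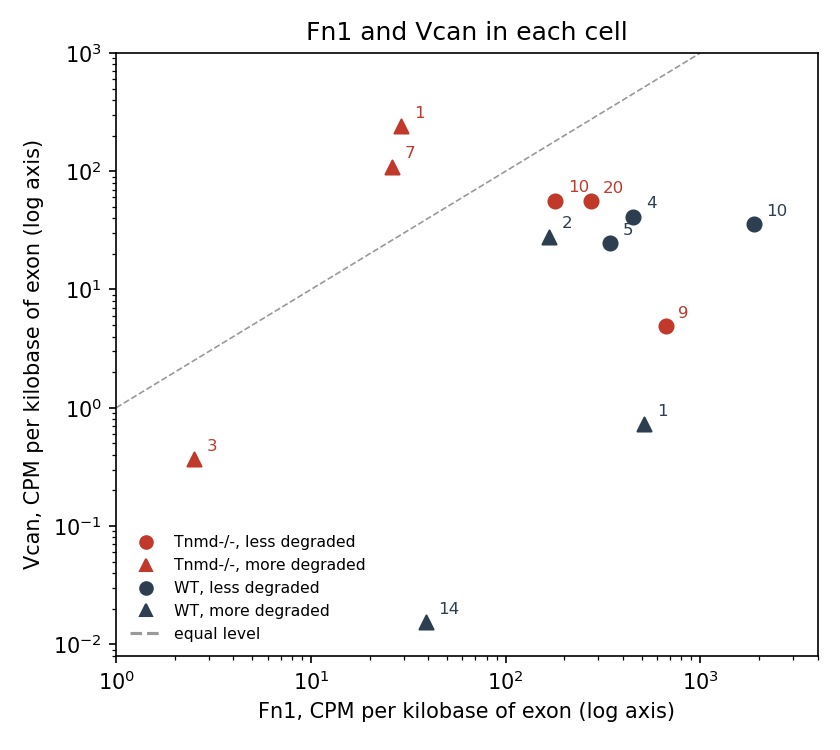
Vcan against Fn1 in each of the 12 cells, both in CPM per kilobase of exon on log axes, with the number of each cell beside its point and a dashed line at equal levels. Tnmd-/- cells 1 and 7 lie above the line and the other 10 cells below it.

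Tnxb (ENSMUSG00000033327, chr17:34670535-34719815, plus strand, 12209 bases of exon, 0.025% of them shared with Cyp21a2-ps) had 1382 counts in Tnmd-/- cell 1 (260 CPM) and 2763 counts in WT cell 10 (203 CPM). Of the other cells, Tnmd-/- cell 7 had 1 count, Tnmd-/- cell 10 had 2, WT cell 1 had 3 and WT cell 4 had 1, and 6 cells had none. A gene with at least 10 counts in only 1 or 2 cells was usual here, as 55.7% of all genes tested were of that kind. Pooled Tnxb was 39.5 CPM (37.4 to 41.6) in Tnmd-/- and 51.8 CPM (49.9 to 53.7) in WT, a log2 ratio of −0.39 (−0.49 to −0.30). That direction rested on a single cell of each genotype, which held 99.8% and 99.9% of the counts. Without WT cell 10 the log2 ratio was 8.62 and without Tnmd-/- cell 1 it was −9.01, and with each cell weighted equally it was 0.36. Because the high cell was more degraded in Tnmd-/- and less degraded in WT, the ratio had opposite signs within the levels, at −9.96 (−13.0 to −8.10) in the less and 9.84 (8.29 to 12.1) in the more degraded cells.

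Postn (ENSMUSG00000027750, chr3:54361109-54391037, plus strand, 8702 bases of exon) had 5 counts in Tnmd-/- cell 10 and none in the other 11 cells. This is 0.485 CPM in that cell and 0.142 CPM (0.046 to 0.333) in the Tnmd-/- cells pooled. In the WT cells the sum was 0, which allows up to 0.0561 CPM when 3 counts are taken as the limit, so that the Tnmd-/- level was at least 2.54-fold higher against it, while the counting interval of that level reached below the limit. Since 1 cell held every count, no difference between genotypes can be read from it.

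Tnc (ENSMUSG00000028364, chr4:63959785-64047015, minus strand, 7772 bases of exon, 2.26% of them shared with 8030451A03Rik) and Tnn (ENSMUSG00000026725, chr1:160085029-160153580, minus strand, 5817 bases of exon) had 0 counts in all 12 cells, as did 55.7% of 21990 protein-coding genes. The limit for both, for the sampling of reads only, was 0.0855 CPM over the knockout cells and 0.0561 CPM over the WT cells. Tenascin R (Tnr), the remaining member of the tenascin family, was at 0 as well. Thus Tnxb was the tenascin with counts, and no difference in Tnc or Tnn between genotypes can be read from these cells.

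**Figure D4:**
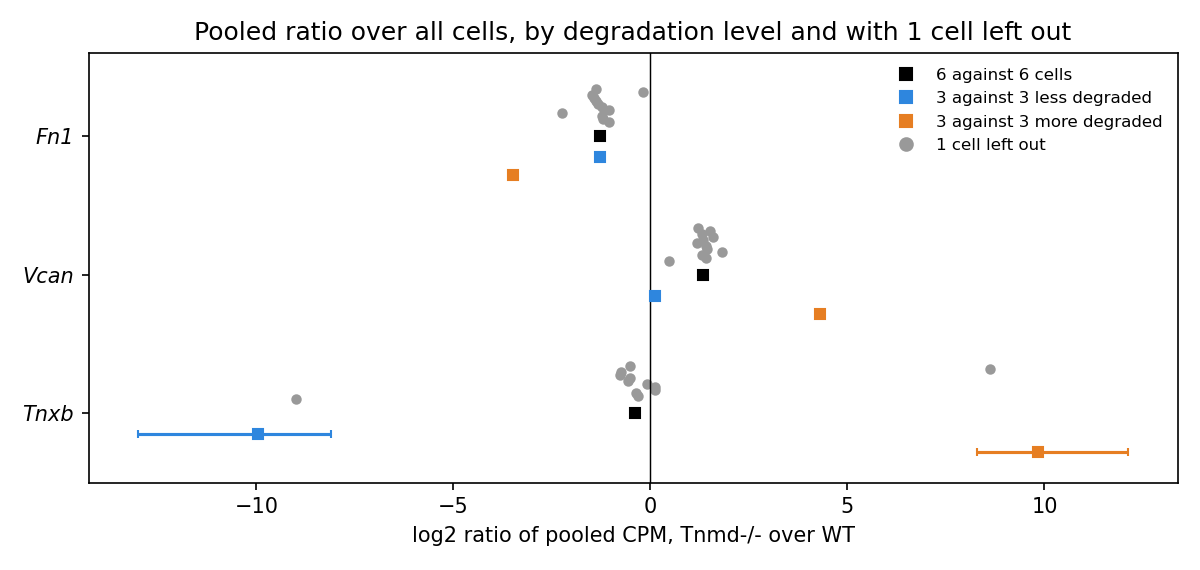
Log2 ratio of pooled CPM, Tnmd-/- over WT, for Fn1, Vcan and Tnxb; squares are all cells (black), less degraded cells (blue) and more degraded cells (orange) with bars for the counting interval, and grey points leave out 1 cell each. Fn1 lies below 0 and Vcan above 0 in every setting drawn, at −3.49 to −0.19 and 0.11 to 4.30, whereas Tnxb spans −9.96 to 9.84.

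Genes that bind, process or resemble these 6 were taken from 5 lists of 50 genes in all, of which 19 had no counts and 30 had at least 20. Of these 30, 8 (26.7%) were at least 2-fold higher and 12 (40.0%) at least 2-fold lower in the Tnmd-/- cells, beside 35.5% and 34.9% of all genes tested. With each cell weighted equally 7 were higher and 18 lower, beside 36.3% and 36.4% of all genes tested. Their median log2 ratio was −0.50 pooled (0.062 for all genes tested), and it was −1.26, −1.15 and −1.53 with equal weights, TMM and DESeq2 scaling. The TMM and DESeq2 values also weighted each cell equally, so all of these scalings share that change from pooled CPM.

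Among 22 receptors, 14 were tested, with a median log2 ratio of −0.89. Of these, 2 were at least 2-fold higher and 7 at least 2-fold lower, beside 35.5% and 34.9% of all genes tested. Itgb1, the beta chain of the Arg-Gly-Asp-binding fibronectin receptor and of many other integrins, stood at 311 pooled CPM for Tnmd-/- and 691 for WT (log2 ratio −1.15), and its cells overlapped, at 7.97 to 386 and 1.18 to 2269 CPM. The other chain of the classical fibronectin receptor, Itga5, stood at 95.6 and 127 pooled CPM. Itgav, the alpha chain that binds fibronectin and periostin, stood at 30.6 and 121 pooled CPM. Its cells overlapped, at 0 to 151 and 0 to 275 CPM, with at least 10 counts in 2 Tnmd-/- and 4 WT cells. Itga5 and Itgav were named here after their values were seen. The 2 receptors at least 2-fold higher were Sdc3 and Itgb8, each with at least 10 counts in 2 cells. Sdc4, a heparan sulfate proteoglycan that binds fibronectin beside the integrins, stood at 1136 and 1365 pooled CPM (log2 ratio −0.27), and was at least 2-fold lower under the 3 other scalings, at −1.02, −1.07 and −1.43. The hyaluronan receptor Cd44 had at least 10 counts in all 12 cells, as did 2.18% of all genes tested, and stood at 1153 and 1269 pooled CPM (log2 ratio −0.14).

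Of 8 partners in matrix assembly, all were tested. In pooled CPM 2 were at least 2-fold higher and 4 at least 2-fold lower, beside 35.5% and 34.9% of all genes tested. Tgm2, the transglutaminase that cross-links fibronectin, stood at 158 pooled CPM in Tnmd-/- and 525 in WT (log2 ratio −1.73). Its cells overlapped, at 0 to 370 and 0.207 to 1010 CPM, with at least 10 counts in 3 Tnmd-/- and 4 WT cells. The fibulins stood at 550 and 356 pooled CPM for Fbln2, which binds fibronectin and versican, and at 297 and 434 for Fbln1 (log2 ratio −0.55, and −1.60, −2.01 and −3.29 with equal weights, TMM and DESeq2). WT cell 14 (4085 CPM) held 54.9% of all Fbln1 counts, and 10 counts were reached in 4 Tnmd-/- and 3 WT cells. The sign of Fbln2 (log2 ratio 0.63) turned under TMM and DESeq2 scaling. Of 7 proteases that cut versican and related proteoglycans, 2 were tested and 5 had no counts. Adamts1 stood at 279 pooled CPM in Tnmd-/- and 26.8 in WT (log2 ratio 3.38), and Adamts5 at 211 and 843 (log2 ratio −2.0), so the pair lay on opposite sides. Adamts1 reached 10 counts in 3 Tnmd-/- and 2 WT cells, with 59.4% of all its counts in Tnmd-/- cell 9. Adamts5 reached 10 counts in 5 Tnmd-/- and 4 WT cells, with 43.3% of all its counts in WT cell 5.

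Hyaluronan, the sugar polymer that versican binds, is made by 3 synthases and held by link proteins. Of the 8 genes on that list 4 were tested. In pooled CPM 2 were at least 2-fold higher in Tnmd-/- and none at least 2-fold lower, beside 35.5% and 34.9% of all genes tested. Has1 and Tnfaip6 passed 2-fold lower under the 3 other scalings, at −1.26 to −1.43 and −2.15 to −4.12. Has1 stood at 59.0 pooled CPM in Tnmd-/- and 111 in WT (log2 ratio −0.91), the link protein Hapln1 at 55.1 and 19.5 (log2 ratio 1.5), and Tnfaip6, which transfers heavy chains onto hyaluronan, at 39.2 and 52.0 (log2 ratio −0.41). Hapln1 and Tnfaip6 each reached 10 counts in only 2 of 12 cells. Of the 5 paralogs, Tnr, Bcan and Ncan were at 0. Aggrecan (Acan), the cartilage relative of versican, stood at 556 pooled CPM in Tnmd-/- and 28.3 in WT (log2 ratio 4.30), with 849 and 1042 CPM in Tnmd-/- cells 9 and 10 and at most 0.19 CPM in the other 4. In WT it stood at 234 CPM in cell 2, at 26.0 CPM in cell 10 and at 0 to 1.60 CPM in the other 4. Its log2 ratio was 2.82, 2.58 and 2.07 with equal weights, TMM and DESeq2. Acan is also on the cartilage marker list, whose summed level was 10002 pooled CPM in Tnmd-/- and 9928 in WT, mostly Comp, and ranged over the cells from 124 to 16864 and from 2474 to 20166 CPM, with Col2a1 and Matn3 at 0. The cartilage marker Sox9 stood at 155 and 36.9 pooled CPM (log2 ratio 2.07), 67.1% of its counts in Tnmd-/- cell 9, and at 0.82 to 1.16 under the other scalings. Tgfbi, the paralog of periostin, stood at 113 and 155 pooled CPM (log2 ratio −0.45), in contrast to the 5 counts of Postn, and its ratio was −1.26, 0.26 and −2.73 with equal weights, TMM and DESeq2.

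**Figure D5:**
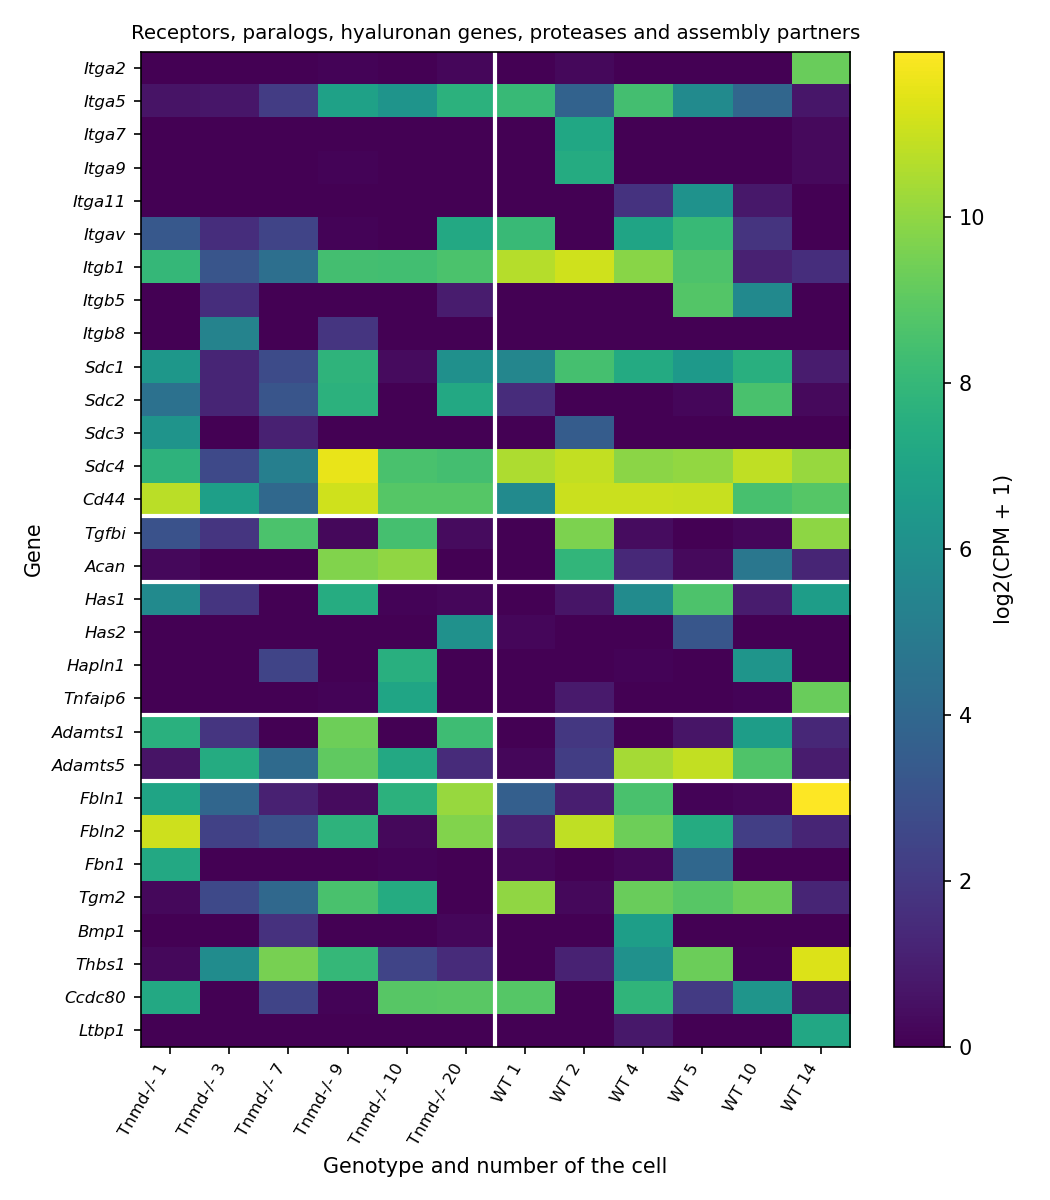
Level of the 30 partner genes with at least 20 counts in each of the 12 cells, as log2(CPM + 1) in colour; columns are cells by genotype and number, and white lines part the genotypes and the 5 lists (from the top, receptors, paralogs, hyaluronan genes, proteases and assembly partners). Cd44 is above 0 in every cell, while Hapln1 and Tnfaip6 are bright in 1 cell of each genotype.

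Among 1834 other genes that reached 10 counts in 6 cells or more, those whose levels ran most like Fn1 over the 12 cells were Kank1 (rho 0.894), Rheb (rho 0.888) and Atp5g1 (rho 0.860), and 7 genes reached a rho of 0.8. Their own rho with total counts was 0.704, 0.762 and 0.692. The genes most like Vcan were Alkbh5 (rho 0.874), Atp5e (rho 0.866) and Ccni (rho 0.863), with 8 genes at 0.8 or above. Their rho with total counts was 0.210, 0.134 and 0.0073. These are the highest of many correlations over 12 cells that share their totals, and they are given as a description.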

How the data were processed

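Reads of 12 Smart-Seq2 libraries were, per the study's methods, trimmed with BBDuk, filtered for mouse with BioBloom Tools, aligned to GRCm38 with STAR 2.5.1b and counted per gene with featureCounts of Subread 2.0.0. The values the authors deposited are raw counts per gene and cell, with no correction, beside the summed exon length. The strand of counting is not given in the sources used here, so reads in exon bases shared with another gene may belong to either, and gene counts do not separate splice forms of Fn1, Tnc and Vcan.

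Groups came from the sample labels. The degradation level came from the colour annotation of the study's expression heatmap. Counts were summed per genotype, and a sum of 0 was bounded at 3 counts. Gene positions came from GENCODE M21. No test was made, since the labels tie no cell to an animal and each genotype counted as 1 sample. Intervals are at 95% and cover the counting of reads only. Without molecular identifiers PCR copies of 1 molecule cannot be told apart, so the intervals do not cover the counting of molecules. At the summed depth of 35088506 and 53439236 counts, 0 counts allow 0.0855 CPM for Tnmd-/- and 0.0561 CPM for WT. These limits hold for the sampling of reads and not for transcripts lost before sequencing.

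The 6 genes and the lists were chosen with earlier results of these data known. All 6 genes are named, with at most 3 genes per partner list, those with the most counts, and the 3 genes most correlated with a member that had at least 10 counts in at least 6 cells. Cell type markers named beyond the 3 with the most counts per list were chosen after their values were seen. Alternatives were equal weights, TMM factors (edgeR 4.0.16), DESeq2 1.42.0 size factors, totals without the mitochondrial and the top 50 genes, each degradation level, and each cell left out. Ratios with TMM and DESeq2 factors were of means over cells, so they also weighted each cell equally. Python 3.11.15, numpy 2.4.6, pandas 2.3.3 and scipy 1.17.1 were used, and the scripts were tested on simulated data.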

Additional observations from a re-analysis of the deposited data

Results flagged for a closer look

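In 4 cases 1 cell stood far from the other 5 of its genotype, by Dixon's ratio of the gap to the range against its 95% critical value for 6 values. Chance passes it in about 1 of 20 groups of normally distributed values, but single-cell CPM are skewed: of the genes tested with any counts in the genotype, the highest cell passed it for 73.1% in Tnmd-/- and 67.7% in WT. With most cells at or near 0, as for Tnxb and Postn, the ratio is near 1 by construction, so these cases describe where the counts lie. They were Fn1 in WT cell 10 (22018 CPM, ratio 0.742), Tnxb in Tnmd-/- cell 1 (260 CPM, ratio 0.996), Tnxb in WT cell 10 (203 CPM, ratio 0.998) and Postn in Tnmd-/- cell 10 (0.485 CPM from 5 counts, ratio 1). WT cell 10 was thus the high cell for both Fn1 and Tnxb, and it was the deepest of the 12 with 13613080 counts. Vcan passed this value in neither genotype (ratios 0.548 and 0.132).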

How the results depend on the processing

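Log2 ratios are Tnmd-/- over WT, and those with TMM and DESeq2 factors also weight each cell equally. The ratio of Fn1 was −1.53 with cells weighted equally, −1.67 with TMM factors, −1.48 with DESeq2 size factors and −1.30 with totals free of mitochondrial and top genes. In that order the ratio of Vcan was 1.85, 2.59, 1.60 and 1.31. The reduced totals move the ratio of every gene by the same amount, and Fn1 was itself among the top genes left out. The TMM factors of Tnmd-/- cells 3 and 7 were 0.529 and 0.225, which raised their scaled levels, that of Vcan in cell 7 among them. The ratio of Tnxb was 0.36 with equal weights and 0.16 with DESeq2, against −0.34 with TMM. In the less and the more degraded cells the ratio was −1.27 and −3.49 for Fn1, 0.11 and 4.30 for Vcan, and −9.96 and 9.84 for Tnxb. Leaving out 1 cell gave −2.24 to −0.19 for Fn1, 0.47 to 1.81 for Vcan, −9.01 to 8.62 for Tnxb (0.11 without Tnmd-/- cell 9 and 0.11 without Tnmd-/- cell 10) and 0.92 to 1.85 for the bound of Postn. Without WT cell 10 the bound of Postn was 0.92. That bound was 1.31 with the reduced totals and 1.21 in the less degraded cells, and it has no value under the other scalings, in the more degraded cells or without Tnmd-/- cell 10. Tnc and Tnn gave no ratio under any setting. The other scalings moved the median log2 ratio of all genes tested by −0.099 (equal weights), −0.11 (TMM) and −0.27 (DESeq2), so that Fn1 and Vcan kept their sides relative to it. Tnxb was seen in 6 cells at 1 count, 2 cells at 10 counts and 4 cells after thinning to 892713 counts, and Postn in 1 cell, 0 cells and 0 cells. Of the 30 partner genes, a check added after seeing the data gave 7, 6 and 7 at least 2-fold higher and 18, 16 and 18 lower under equal weights, TMM and DESeq2, beside 36.3%, 36.6% and 34.7% higher and 36.4%, 35.5% and 38.2% lower of all genes tested. The cause of these shifts was not tested. No paired analysis was possible because the cell numbers name picked cells and no test was made. Of all genes tested, 3041 were at least 2-fold higher and 3271 lower at a minimum of 100 counts, and 2690 and 2830 with 5 CPM added, against 3468 and 3407.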
